A study of Saccharomyces cerevisiae with 4 samples.

Results

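The 41 genes described here encode the factors that start, extend and end protein synthesis in budding yeast, *Saccharomyces cerevisiae*. They were chosen by name and matched by symbol to the R64 gene table, which holds 6002 nuclear protein-coding genes. All 41 were found. By role, 25 encode initiation factors, 11 elongation factors, and 5 factors of termination, recycling or ribosome binding. They were examined in chromatin immunoprecipitation sequencing of Swc4, a subunit common to 2 chromatin complexes. One is SWR1, which exchanges histone H2A for H2A.Z, and the other is NuA4, which acetylates histones.

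The yaf9d cells lack YAF9, whose product is another subunit shared by both complexes, and they are set against wild_type cells. Each genotype has 2 libraries. Per the labels, all 4 come from untreated haploid BY cells grown in rich medium to mid-log phase, Swc4 carries 13 copies of the myc tag in each, and a myc antibody was used. The deletion is named in the sample titles alone. Whether replicates came from separate cultures is not stated, so the spread between them may be technical.

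Initiation brings the small ribosomal subunit and the first transfer RNA to a start codon. The eIF4 proteins bind the messenger RNA cap and unwind its leader, eIF2 delivers the initiator transfer RNA, its exchange factor eIF2B recharges it with GTP, and eIF3 holds the assembly together. In elongation, eEF1A brings in charged transfer RNAs, eEF2 moves the ribosome along, and fungi need a further factor, eEF3. Many of these genes are among the most strongly transcribed in growing yeast, and several exist as near-identical duplicates left by an ancient genome duplication.

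The nuclear peak lists held 616 and 1139 peaks in yaf9d replicates 1 and 2, and 884 and 704 in wild_type replicates 1 and 2. Read totals do not come with the lists. The whole-number pileup at each summit, found from the listed fold and p-value, had a median of 132 and 146 in yaf9d and 132 and 126 in wild_type. No peak touched the gene or upstream window of SWC4 in any library. YAF9 had 1 upstream summit, in yaf9d replicate 2, which says nothing for or against the deletion because the window lies outside the gene. A gene without a summit is one where none was called, and Swc4 may still be there below the caller's threshold.

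A summit in the 500 bp upstream of the coding start was counted apart from a summit within the gene body. The fold given for each peak is the authors' summit enrichment relative to the local background. It belongs to its own list, so folds were described and ranked within a list and were not tested between lists.

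In 3 of the 4 libraries more translation factor genes had a Swc4 summit inside the gene than upstream of it, and in yaf9d replicate 1 the 2 counts were equal. This order was not particular to them. Over all coding genes, gene body calls also outnumbered upstream calls in the same 3 libraries. They were 727 against 368 in yaf9d replicate 2, and 628 against 352 and 413 against 291 in wild_type. In yaf9d replicate 1 they were 214 against 341. Of the 41 genes, 4 and 18 had a gene body summit in yaf9d replicates 1 and 2, and 19 and 13 in wild_type replicates 1 and 2. These were 9.76% and 43.9% of the genes in yaf9d, and 46.3% and 31.7% in wild_type. Over all coding genes the share was 3.57% and 12.1% in yaf9d, and 10.5% and 6.88% in wild_type. The share of the translation factor genes thus exceeded that of all coding genes in each of the 4 libraries. In yaf9d replicate 1 this depended on near-identical gene copies, described below. Without them the share there was 2.86%, below the 3.57% of all coding genes. The median length of the 41 genes was 1377 bp against 1200 bp for all coding genes, and both exceed the 500 bp of the upstream window. Per 100 kb of gene body they held 7.50 and 30.0 summits in yaf9d and 34.5 and 21.0 in wild_type. All coding genes held 2.48 and 8.87 per 100 kb in yaf9d, and 7.25 and 4.76 in wild_type.

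With peaks of a fold of 2 or more alone, the mean number of genes with a gene body summit was 3 in yaf9d and 3 in wild_type, and with an upstream summit 4 in yaf9d and 2.5 in wild_type. The share of all coding genes at that fold is not given here, so these means have no background beside them. With all peaks, upstream summits were present at 4 and 4 of the 41 genes in yaf9d and at 2 and 4 in wild_type. The shares were 9.76% in both yaf9d libraries, and 4.88% and 9.76% in wild_type. Over all coding genes they were 5.68% and 6.13% in yaf9d, and 5.86% and 4.85% in wild_type, so wild_type replicate 1 fell below its background. The 137 genes of cytosolic ribosomal proteins had an upstream summit in 48.9% and 46.7% of cases in yaf9d, and in 44.5% and 42.3% in wild_type. Their gene bodies held one in 12.4% and 40.9% of cases in yaf9d, and in 38.7% and 44.5% in wild_type. The ribosomal protein genes thus had the higher upstream share in every library, while for gene bodies neither list had the higher share in all 4. Ribosomal protein genes are shorter, with a median of 771 bp. Per 100 kb of gene body they held 17.6 and 55.8 summits in yaf9d and 51.8 and 59.7 in wild_type, more than the translation factor genes in each library. Lists were not tested against each other.

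Upstream summits were absent in every library at 35 of the 41 genes (88.7% of all coding genes), and 6 had one in at least 1 library, against 11.3%. The set called upstream in both wild_type libraries alone was 0, against 0.85%. A gene body summit was called in at least 1 library at 25 of the 41 genes (61.0%), against 21.1% of all coding genes, and in none at 16, against 78.9%. Over the 4 libraries, 27 of the 41 genes had a summit upstream or within the gene in at least 1 library (65.9%, against 28.8% of all coding genes). The 14 without one were TIF4632, TIF11, SUI1, SUI2, RPG1, PRT1, NIP1, HCR1, GCD2, GCD7, GCN3, HEF3, SUP45 and RLI1. Of these 14, 11 belong to initiation.

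**Figure D1:**
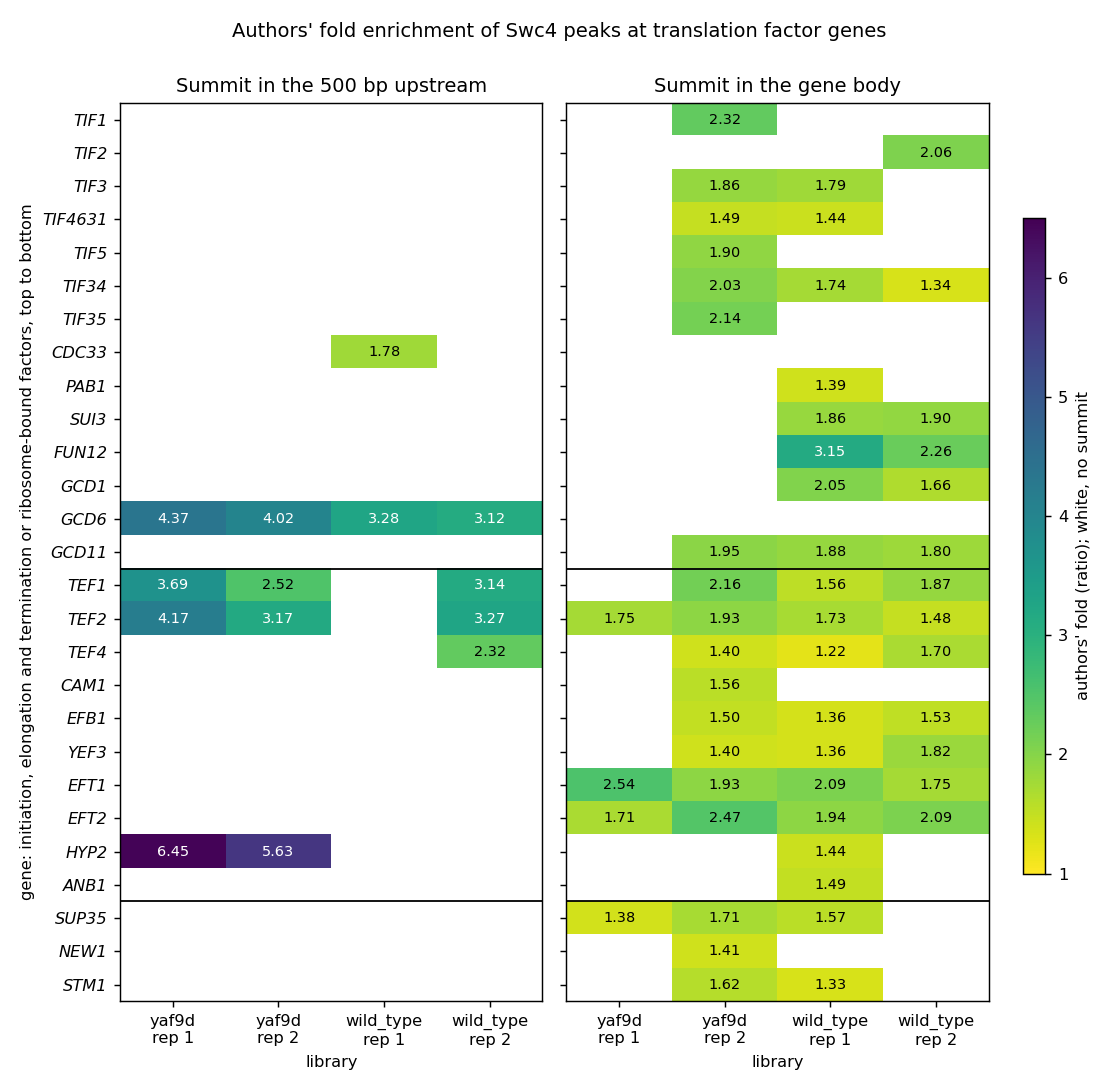
Authors' fold enrichment (colour and printed value) of peaks with a summit in the 500 bp upstream (left) or in the gene body (right) of the 27 translation factor genes with a summit, by library, with the highest fold where a gene had several. Upstream summits fill few cells and reach folds of 6.45 and 5.63 at HYP2, while gene body summits are common and reach 3.15 at FUN12.

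The genotypes were compared by the number of genes called per library. Upstream summits averaged 4 ± 0 genes in yaf9d and 3 ± 1.41 in wild_type (SD, n = 2 each), with p = 1 in an exact two-sided permutation test. Gene body summits averaged 11 ± 9.90 genes in yaf9d and 16 ± 4.24 in wild_type (SD, n = 2 each), with p = 0.667 in the same exact test. Neither difference exceeded the spread between replicates. With 2 libraries a group the smallest p is 0.333, so no genotype difference could pass 0.05. The yaf9d mean for gene bodies joins 2 unlike libraries: it was 18 without yaf9d replicate 1 and 4 without yaf9d replicate 2, which turns the difference from wild_type to 2 and to -12 genes.

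The lists also differ in length. The 616 peaks of highest significance in each list, a setting chosen after the data were seen, left gene body summits at 4 and 13 genes in yaf9d and 13 and 12 in wild_type. The shares over all coding genes were then 3.57% and 5.01% in yaf9d, and 6.73% and 5.81% in wild_type.

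Gene body summits were called at 3 and 8 of 11 elongation genes in yaf9d (27.3% and 72.7%), and 9 and 7 of 11 in wild_type (81.8% and 63.6%). Of the 25 initiation genes, 0 and 7 had one in yaf9d (0% and 28%), and 8 and 6 in wild_type (32% and 24%). Of the 5 termination and ribosome-bound factors, 1 and 3 had one in yaf9d, and 2 and 0 in wild_type. The gene body share over all coding genes was 3.57% and 12.1% in yaf9d, and 10.5% and 6.88% in wild_type. Upstream summits were at 3 and 3 elongation genes in yaf9d and 0 and 3 in wild_type, at 1 and 1 initiation genes in yaf9d and 2 and 1 in wild_type, and at 0 genes of the third role in any library. The upstream share of elongation genes was 27.3% and 27.3% in yaf9d, and 0% and 27.3% in wild_type. That of initiation genes was 4% and 4% in yaf9d, and 8% and 4% in wild_type. Both compare with 5.68% and 6.13% in yaf9d, and 5.86% and 4.85% in wild_type, over all coding genes. Without TEF1, TEF2, EFT1 and EFT2 the upstream share of elongation genes was 14.3% and 14.3% in yaf9d, and 0% and 14.3% in wild_type. Each share of 14.3% is 1 of 7 genes. The elongation share for gene bodies was above those of both other roles in each library, but not without TEF1, TEF2, EFT1 and EFT2, the near-identical copies described next. The remaining 7 elongation genes had a gene body summit in 0% and 57.1% of cases in yaf9d, and in 71.4% and 42.9% in wild_type, against 20% and 60% in yaf9d, and 40% and 0% in wild_type, for the third role. In 3 or more libraries a gene body summit was present at 7 of the 11 elongation genes, 2 of the 25 initiation genes and 1 of the 5 others, against 2.98% of all coding genes. Without TEF1, TEF2, EFT1 and EFT2 it was present at 3 of the 7 remaining elongation genes.

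**Figure D2:**
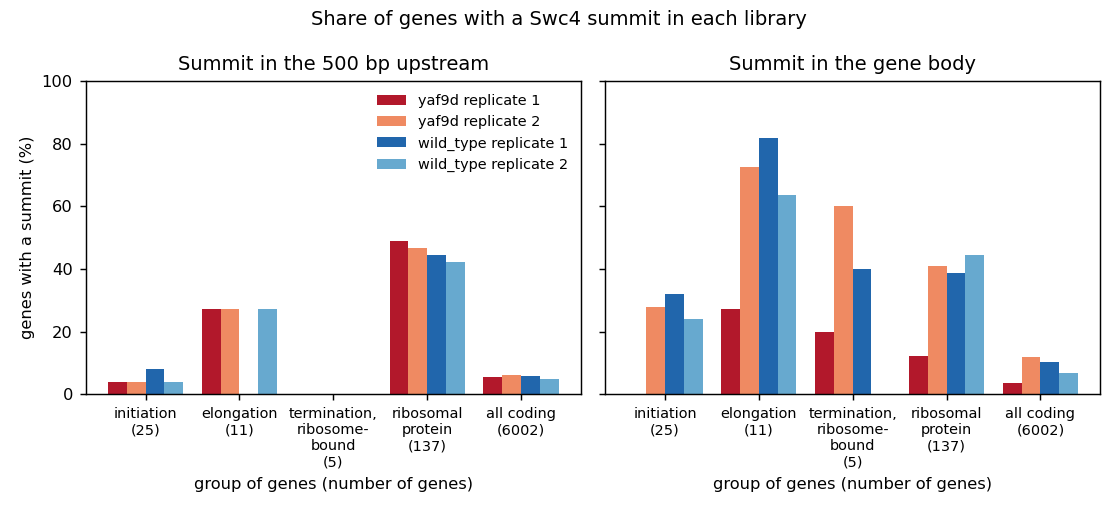
Percentage of genes with a Swc4 summit in the 500 bp upstream (left) or in the gene body (right), for the 3 roles, ribosomal protein genes and all coding genes; each bar is 1 library, yaf9d before wild_type. Elongation genes reach 81.8% for gene bodies, and the 6002 coding genes stay at or below 12.1%.

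TEF1 and TEF2 were marked at 2 places, far upstream and in the middle of the gene. Both encode the same protein, eEF1A, which carries aminoacyl-tRNA to the ribosome. The upstream summit of TEF1 lay 422 and 406 bp before the coding start in yaf9d replicates 1 and 2, with folds of 3.69 and 2.52, and 450 bp before it in wild_type replicate 2, with a fold of 3.14. In wild_type replicate 1 the nearest summit was 725 bp upstream, inside the neighbouring gene MRL1, with a fold of 1.90, though its peak reached into the TEF1 window. TEF2 had its upstream summit 430 and 445 bp before the coding start in yaf9d, with folds of 4.17 and 3.17, and 458 bp before it in wild_type replicate 2, with a fold of 3.27. No peak touched that window in wild_type replicate 1. The TEF2 peaks ranked 133 of 616 and 172 of 1139 in yaf9d, and 93 of 704 in wild_type replicate 2. Both genes thus showed the same picture, with an upstream summit in 3 libraries and none in wild_type replicate 1, against 3.28% of all coding genes with one in 3 or more libraries. Of the 41 genes, 3 had one in 3 or more.

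The gene body summit of TEF1 lay 769 bp after the coding start in yaf9d replicate 2, and 762 and 787 bp after it in wild_type, with folds of 2.16 in yaf9d and 1.56 and 1.87 in wild_type. That of TEF2 lay 761 and 763 bp after it in yaf9d, and 782 and 768 bp after it in wild_type, with folds of 1.75 and 1.93 in yaf9d and 1.73 and 1.48 in wild_type. Within a library the positions in the 2 copies differed by 6 bp in yaf9d replicate 2, and by 20 and 19 bp in wild_type. These peaks stood on high pileups. At TEF2 the summit held 645 and 802 over backgrounds of 368 and 416 in yaf9d, and 712 and 492 over 411 and 333 in wild_type. At the TEF2 upstream summit the pileup was 213 and 186 over 50.3 and 58.0 in yaf9d, and 165 over 49.8 in wild_type replicate 2. The upstream peaks had the larger folds and the gene body peaks the larger pileups.

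EFT1 and EFT2, which both encode eEF2, the translocase of the ribosome, were called in their gene bodies in all 4 libraries. With TEF2 they were the 3 genes of the 41 with a gene body summit in every library, a pattern found at 0.833% of all coding genes. EFT1 had a summit 445 bp after the coding start in yaf9d replicate 1, with a fold of 2.54, and 447 and 443 bp after it in wild_type, with folds of 2.09 and 1.75. EFT2 had one 446 and 445 bp after it in yaf9d, with folds of 1.71 and 2.47, and 446 bp after it in both wild_type libraries, with folds of 1.94 and 2.09. A second summit stood near the end of both genes. It lay 2373 and 2366 bp from the start of EFT1 in yaf9d and 2357 bp in wild_type replicate 1, and its folds were 1.32 and 1.93 in yaf9d and 1.51 in wild_type. At EFT2 it lay 2367 bp in yaf9d replicate 2, with a fold of 2.18, and 2365 and 2362 bp in wild_type, with folds of 1.33 and 1.91. Each of these EFT2 summits also lay in the upstream window of another coding gene, MUS81. The summits of the 2 copies fell 1 bp apart near position 445 in yaf9d replicate 1, and 1 and 3 bp apart in wild_type.

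TIF1 and TIF2 encode the same RNA helicase, eIF4A, which unwinds messenger leaders. TIF1 had a summit 227 bp after its coding start in yaf9d replicate 2, with a fold of 2.32. TIF2 had one 236 bp after its own in wild_type replicate 2, with a fold of 2.06. The remaining libraries called neither gene. Each copy was thus called in 1 library, 9 bp apart in position.

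The coding regions of TEF1 and TEF2, EFT1 and EFT2, and TIF1 and TIF2 are nearly identical in sequence, and how the authors placed reads that match both copies is not given in the sources used here. A body summit in 1 copy cannot be assigned to that copy with certainty. Without these 6 genes, 35 translation factor genes had a gene body summit in 1 and 13 cases in yaf9d, and in 15 and 8 cases in wild_type, or 2.86% and 37.1%, and 42.9% and 22.9%. In yaf9d replicate 1 that share was below the background of 3.57%. The background was 12.1% in yaf9d replicate 2, and 10.5% and 6.88% in wild_type. Without these 6 genes, upstream calls were 2 of 35 (5.71%) in each of the 4 libraries. Over all coding genes the upstream share was 5.68% and 6.13% in yaf9d, and 5.86% and 4.85% in wild_type.

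**Figure D3:**
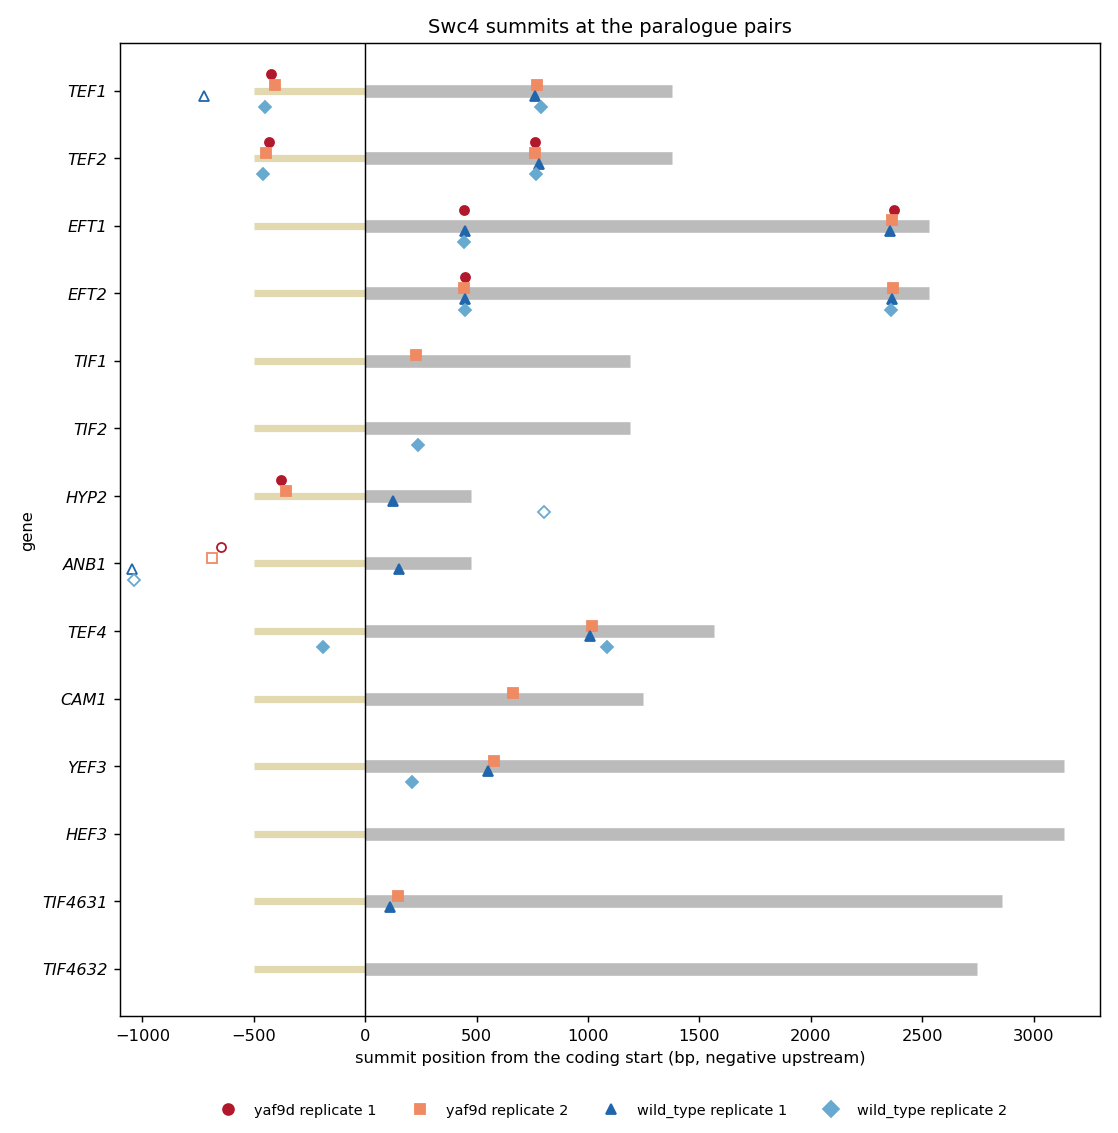
Summit positions (bp from the coding start, negative upstream) at the 7 paralogue pairs, with the gene body in grey and the 500 bp upstream in tan; each symbol is a summit of 1 library, and open symbols lie outside both. Summits of TEF1 and TEF2 and of EFT1 and EFT2 fall at matching positions, while HEF3 and TIF4632 have none.

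HYP2 had the highest fold of the 41 genes in each yaf9d list, but not in the wild_type lists. It encodes eIF5A, the hypusine-bearing factor that helps ribosomes through difficult peptide bonds and is made in the presence of oxygen. Its upstream summit lay 377 and 354 bp before the coding start in yaf9d replicates 1 and 2, with folds of 6.45 and 5.63 and ranks of 65 of 616 and 37 of 1139. The summit pileups were 615 and 607, over backgrounds of 94.5 and 107. In wild_type replicate 1 the summit of the peak there lay 126 bp inside HYP2, with a fold of 1.44, a rank of 761 of 884 and a pileup of 486 over 337. That position is also in the upstream windows of the neighbouring genes UTR5 and MTC7. In wild_type replicate 2 the summit lay 802 bp after the coding start, past the gene and inside MTC7, with a fold of 2.14, a rank of 253 of 704 and a pileup of 474 over 221. HYP2 was the 1 gene of the 41 whose upstream summit was called in each yaf9d library and in no wild_type library, a pattern of 1.18% of all coding genes.

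The HYP2 peaks were broad, and all 4 covered the same stretch of chromosome V. They ran from 85043 to 86068 and from 85059 to 86682 in yaf9d, and from 85092 to 86569 and from 85071 to 86717 in wild_type. All 4 peaks touched the upstream window, so the libraries differed in where the summit was set and not in whether a peak was called. The wild_type summits, 126 and 802 bp after the coding start, also lay far from each other. Whether the summit position differs by genotype was not tested. The yaf9d summits lay inside UTR5, the divergent gene before HYP2. The tRNA gene YNCE0005W stands behind MTC7. Its middle was over 1000 bp from the yaf9d summits, 842.5 bp from the summit of wild_type replicate 1 and 166.5 bp from that of wild_type replicate 2. Peaks of yaf9d replicate 2 and wild_type replicate 2 reached that tRNA gene, and no summit fell inside it.

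ANB1, the copy of HYP2 used when oxygen is scarce, had no upstream summit. A gene body summit was called in wild_type replicate 1, 153 bp after the coding start, with a fold of 1.49. The nearest upstream summits, just outside the 500 bp limit, lay 648 and 688 bp before it in yaf9d, with folds of 2.75 and 2.52, in the window before CYC1, the divergent cytochrome c gene. In wild_type they lay 1046 and 1039 bp before it, inside CYC1, with folds of 1.38 and 1.58. The farthest upstream summit inside the limit was that of TEF2 in wild_type replicate 2, 458 bp from the coding start.

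The subunits of the exchange factor of eEF1A were called in their gene bodies. EFB1, its catalytic subunit, had a summit 587 bp after the coding start in yaf9d replicate 2, with a fold of 1.50, and 584 and 590 bp after it in wild_type, with folds of 1.36 and 1.53. TEF4, a gamma subunit, had one 1018 bp after it in yaf9d replicate 2, with a fold of 1.40, and 1010 and 1085 bp after it in wild_type, with folds of 1.22 and 1.70. Both genes contain an intron, which is counted in these distances. TEF4 also had an upstream summit in wild_type replicate 2, 188 bp before the coding start and in the window shared with RRP14, with a fold of 2.32. CAM1, the other gamma subunit, had 1 summit, in yaf9d replicate 2, 663 bp after the coding start with a fold of 1.56. YEF3, the eEF3 gene used in growing cells, had one 577 bp after it in yaf9d replicate 2, with a fold of 1.40, and 552 and 208 bp after it in wild_type, with folds of 1.36 and 1.82. HEF3, its little-used copy, had none. EFB1, TEF4 and YEF3 were thus called in the same 3 libraries and missed in yaf9d replicate 1.

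Gene body peaks of elongation genes had a higher median local background than those of all coding genes. It was 110 and 265 in yaf9d, and 326 and 201 in wild_type. These medians rest on 4 and 9 peaks in yaf9d, and on 11 and 8 in wild_type. In yaf9d replicate 1 all of them lay at TEF2, EFT1 and EFT2, and no median without the near-identical copies is given. Over the gene body peaks of all coding genes the median background was 55.7 and 83.4 in yaf9d, and 72.5 and 70.8 in wild_type. The median fold of the elongation peaks was 1.73 and 1.93 in yaf9d, and 1.49 and 1.78 in wild_type, against 1.65 and 1.66, and 1.72 and 1.75, over all coding genes. Ribosomal protein genes shared the higher background, with medians of 182 and 207 in yaf9d, and 214 and 153 in wild_type, the first of them above that of the elongation genes. At initiation genes the median background was 80.1 in yaf9d replicate 2, and 90.1 and 66.9 in wild_type. The elongation peaks were not all alike. Those of TEF2 stood on backgrounds from 333 to 416, while EFT1 had a summit pileup of 122 over 47.3 in yaf9d replicate 1, and of 112 over 53.0 and 98 over 55.5 in wild_type. The part of this background in the calls was not tested.

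**Figure D4:**
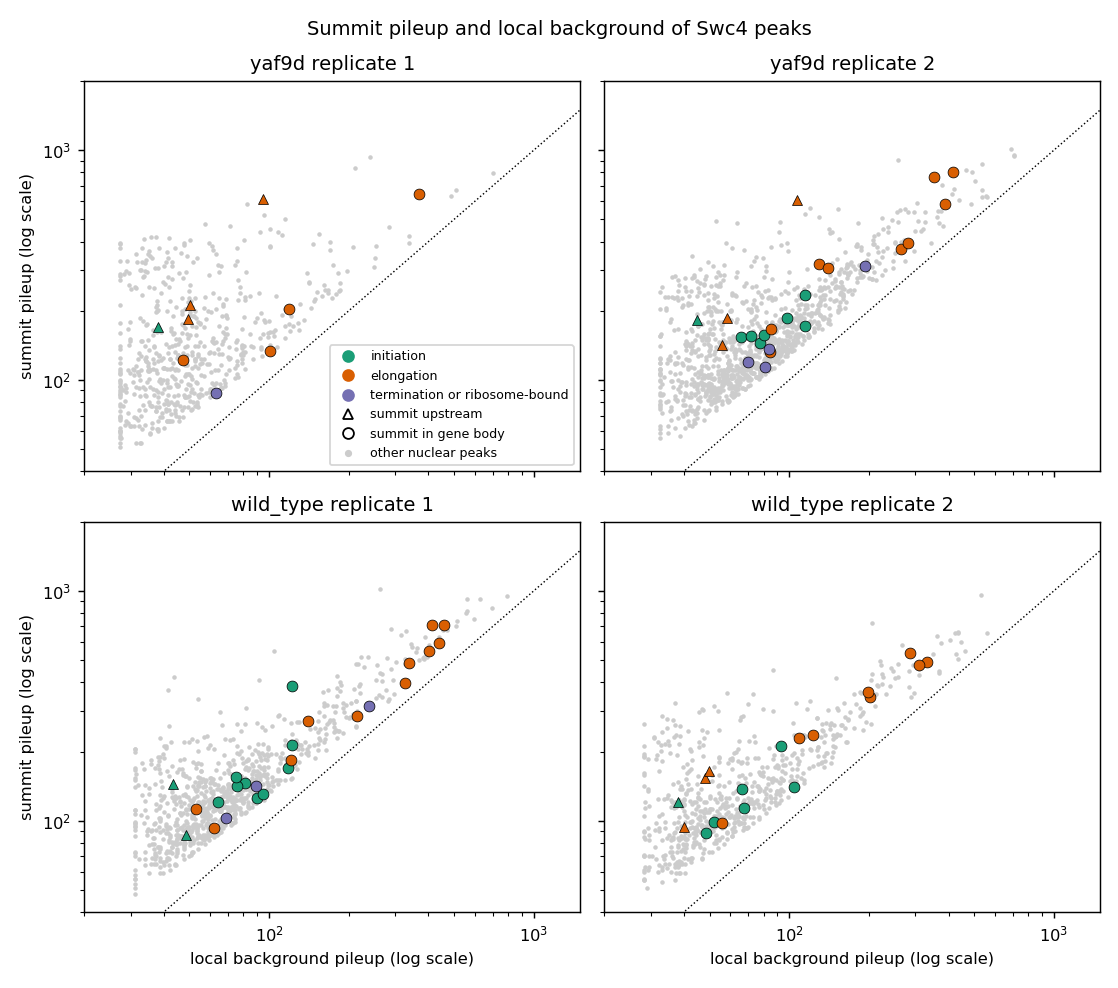
Summit pileup against local background pileup (both on log axes, in the units of the peak caller) for all nuclear peaks (grey) and for peaks at translation factor genes, by role and place of the summit, in the 2 yaf9d libraries (top) and the 2 wild_type libraries (bottom); the dotted line marks equal values. Many gene body peaks of elongation genes lie at the upper right, up to a pileup of 802 over 416, and others, such as EFT1 at 98 over 55.5, lie among the peaks in grey.

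Among initiation genes, GCD6 alone had an upstream summit in all 4 libraries. It encodes the catalytic epsilon subunit of eIF2B. The summits lay 252 and 268 bp before the coding start in yaf9d, with folds of 4.37 and 4.02, and 251 and 239 bp before it in wild_type, with folds of 3.28 and 3.12. The peaks ranked 117 of 616 and 94 of 1139 in yaf9d, and 74 of 884 and 112 of 704 in wild_type. Every one of these summits fell inside a tRNA gene, YNCD0017W, 48 and 32 bp from its middle in yaf9d, and 49 and 61 bp in wild_type. The call at GCD6 is therefore also a call at that tRNA gene. Of the 41 genes, 1 had an upstream summit in all 4 libraries, against 1.88% of all coding genes.

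FUN12, GCD1 and SUI3 were called just inside the coding start in each wild_type library and in no yaf9d library. FUN12 encodes eIF5B, the GTPase that joins the ribosomal subunits. It had no call in yaf9d, and in wild_type its summit lay 97 and 101 bp after the coding start with folds of 3.15 and 2.26 and ranks of 84 of 884 and 218 of 704. GCD1, the gamma subunit of eIF2B, had no call in yaf9d and summits 69 and 103 bp after the coding start in wild_type, with folds of 2.05 and 1.66. SUI3, the beta subunit of eIF2, had no call in yaf9d and summits 43 and 102 bp after it in wild_type, with folds of 1.86 and 1.90. They make 3 of 41 genes (7.32%), against 1.73% of all coding genes, and the reverse pattern held for 0 of 41, against 0.75%. In yaf9d replicate 1 a gene body summit was called at 0 of the 25 initiation genes. Among these the reverse pattern could therefore not occur, and the lack of a yaf9d call depended on yaf9d replicate 2 alone. The FUN12 summits also lay in the window before RBG1, a divergent gene for a GTPase, and those of GCD1 in the window before RPT4, a divergent gene for a proteasome ATPase. Leaving out gene body summits that lie in the upstream window of another coding gene gave means of 11 genes in yaf9d and 13.5 in wild_type, a difference of -2.5 in place of -5 genes.

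GCD11, the gamma subunit of eIF2, had a summit near the start in wild_type alone, 153 and 27 bp after the coding start, with folds of 1.88 and 1.80. Near its end it had one 1402 bp after the start in yaf9d replicate 2, with a fold of 1.95, and 1426 bp after it in wild_type replicate 1, with a fold of 1.37. The tRNA gene YNCE0013W lies 739.5 and 715.5 bp from these, and no peak covered it in any library. TIF4631, one of the genes for the scaffold eIF4G, had a summit 145 bp after the start in yaf9d replicate 2 and 111 bp after it in wild_type replicate 1, with folds of 1.49 and 1.44. The tRNA gene YNCG0037W, 685.5 and 651.5 bp away, had no peak either. TIF4632, the other eIF4G gene, had no summit.

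TIF34, the eIF3i subunit, was the other initiation gene with a body summit in 3 libraries, 882 bp after the start in yaf9d replicate 2, and 898 and 874 bp after it in wild_type. Its folds were 2.03 in yaf9d, and 1.74 and 1.34 in wild_type. TIF3, the gene of eIF4B, had one 914 bp after the start in yaf9d replicate 2 and 239 bp after it in wild_type replicate 1, with folds of 1.86 and 1.79. TIF5 and TIF35 were called in yaf9d replicate 2 alone, and PAB1, the poly(A)-binding protein gene, in wild_type replicate 1 alone. CDC33, which encodes the cap-binding protein eIF4E, had an upstream summit in wild_type replicate 1 alone, 388 bp before the coding start and inside the neighbouring gene RTC1, with a fold of 1.78.

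**Figure D5:**
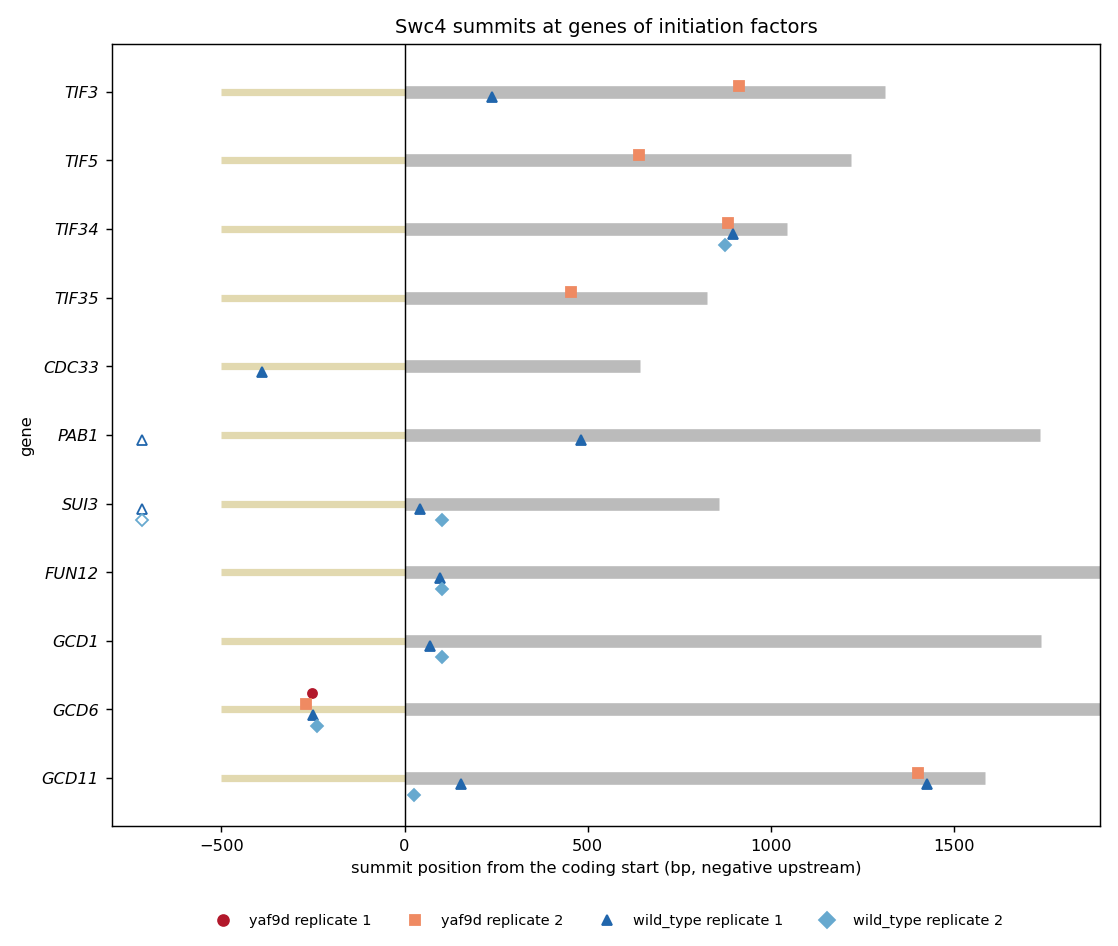
Summit positions (bp from the coding start, negative upstream) at initiation factor genes with a summit, leaving out TIF1, TIF2 and TIF4631; gene bodies in grey, cut at the right edge for FUN12 and GCD6, the 500 bp upstream in tan, and open symbols outside both. In each wild_type library SUI3, FUN12, GCD1 and GCD11 have a summit from 27 to 153 bp after the coding start, with further ones at 1426 bp for GCD11 and 717 and 718 bp upstream of SUI3, and those of GCD6 lie upstream in all 4 libraries.

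Gene body summits of initiation genes within the first 250 bp came mostly from wild_type. They numbered 0 of 0 and 2 of 7 in yaf9d, and 6 of 9 and 5 of 6 in wild_type. At elongation genes they numbered 0 of 4 and 0 of 9 in yaf9d, and 2 of 11 and 1 of 8 in wild_type. At termination and ribosome-bound factors they numbered 0 of 1 and 1 of 4 in yaf9d, and 2 of 3 and 0 of 0 in wild_type. The share over all coding genes was 34.1% and 27.0% in yaf9d, and 54.4% and 48.8% in wild_type. For the 41 genes it was 0 of 5 and 3 of 20 summits in yaf9d, and 10 of 23 and 6 of 14 in wild_type. The same gene recurs in several libraries, so these summits are not independent, and no test was run.

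Counting any peak that touched the upstream window by 1 bp or more, in place of summits, turned the genotype difference round. It gave 6 and 8 genes in yaf9d and 13 and 12 in wild_type, with means of 7 ± 1.41 and 12.5 ± 0.707 (SD, n = 2 each). An exact two-sided permutation test gave p = 0.333, which is as low as 2 libraries a group allow. The 2 genotypes did not overlap, and at -5.5 genes the difference was larger than the replicate spread. Over all coding genes the share touched was 11.2% and 13.6% in yaf9d, and 15.9% and 14.3% in wild_type, which did not overlap either. For the 41 genes it was 14.6% and 19.5% in yaf9d, and 31.7% and 29.3% in wild_type. SUI3, FUN12, GCD1, GCD11 and EFT1 had such a peak in each wild_type library and in no yaf9d library (5 of 41, against 3.23% of all coding genes), and 0 genes showed the reverse, against 1.5%. At FUN12, GCD1, GCD11 and EFT1 the touching peaks had their summits inside the gene, as given above. EFT1 was also called in yaf9d replicate 1, with its summit 445 bp inside the gene and a fold of 2.54. That peak began at 575229, and those of wild_type at 575054 and 575078, so the edge of the peak made the difference there. GCD6, TEF1, EFT2 and HYP2 had one in all 4 libraries, against 4.83%. With TEF2 they make 5 in 3 or more libraries, against 8.65%, and 18 of the 41 had one in at least 1 library, against 26% of all coding genes (74% had none).

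Termination and ribosome-bound factors had gene body summits alone. SUP35, the release factor eRF3, had them in 3 libraries. They lay 1382 bp after the start in yaf9d replicate 1, 427 and 1147 bp in yaf9d replicate 2, and 196 and 1160 bp in wild_type replicate 1. Their folds were 1.38, 1.62 and 1.71 in yaf9d, and 1.57 and 1.49 in wild_type. STM1, which binds and preserves idle ribosomes, had one 157 bp after the start in yaf9d replicate 2 and 231 bp after it in wild_type replicate 1, with folds of 1.62 and 1.33. NEW1, an ATPase related to eEF3, had one in yaf9d replicate 2, 3361 bp after the start. SUP45, the release factor eRF1, and RLI1, the ribosome recycling ATPase, had none.

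A tRNA gene lay within 1 kb of 1 of 4 upstream summits in each yaf9d library, and of 1 of 2 and 1 of 4 in wild_type, each time at GCD6. Over upstream summits of all coding genes the share was 16.4% and 14.8% in yaf9d, and 9.73% and 10.5% in wild_type. For gene body summits it was 0 of 5 and 2 of 20 in yaf9d, and 3 of 23 and 0 of 14 in wild_type, and these are the ones at TIF4631, GCD11 and HYP2. That is 0% and 10% in yaf9d, and 13% and 0% in wild_type, against 5.53% and 3.98% in yaf9d, and 3.76% and 5.78% in wild_type, over gene body summits of all coding genes.

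A wider list of 29 translation genes, among them regulators, the helicase DED1 and mitochondrial factors, had upstream summits in 1 and 4 cases in yaf9d, and in 3 and 3 in wild_type. These upstream shares were 3.45% and 13.8% in yaf9d, and 10.3% and 10.3% in wild_type. Over all coding genes the upstream share was 5.68% and 6.13% in yaf9d, and 5.86% and 4.85% in wild_type. Gene body summits were present in 1 and 4 cases in yaf9d, and in 4 and 3 in wild_type. ARB1, a ribosome biogenesis ATPase, was the 1 with an upstream summit in all 4 libraries, against 1.88% of all coding genes. DED1 and GCN20, a partner of the Gcn1 regulator, had one in 3, and 3.28% of all coding genes had one in 3 or more. The gene body shares of 3.45% and 13.8% in yaf9d, and 13.8% and 10.3% in wild_type, compare with 3.57% and 12.1% in yaf9d, and 10.5% and 6.88% in wild_type, over all coding genes.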

How the data were processed

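Swc4 ChIP-seq was analysed from 4 peak lists, 1 per library, called per library. The submitters' processing notes name MACS2 (version 2), SAMtools 1.4 and BWA 0.7.15-r1140, with no roles. Sources used here do not state the genome build, the control, the handling of multiply matching reads or the threshold. Per peak, the deposited lists hold, by the authors, a fold (ratio) at the summit, a −log10 p-value, a −log10 q-value and a score, a truncated multiple of the q column that was not used. Titles gave the groups.

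Summits were placed on the RefSeq R64 gene table, with strand from the systematic name. Of 276 summits within 300 bp of a tRNA gene's middle, 88.8% lay within 100 bp. Peak coordinates are 1-based: starts and summits were shifted by 1 bp from the deposited values, and ends are as deposited. Mitochondrial peaks were left out. Pileups were taken as whole numbers that gave the listed fold and p-value (within 0.001 for 99.0% to 99.9% of peaks) and cover counting on the caller's scale.

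Python 3.11.15, pandas 2.3.3 and scipy 1.17.1 were used, and the classification was tested on simulated data. Genotypes were compared by exact permutation of 4 library values. Alternatives were other windows, overlap by 1 bp, a −log10 q of 5 or a fold of 2 or more, leaving out libraries, near-identical genes or gene body summits in other genes' upstream windows, and equal list length. Named genes are those with a summit in 2 or more libraries and the 7 pairs; TIF5, TIF35, PAB1, CDC33, NEW1 and the named genes of the wider list were added after their values were seen. RPP1, a ribonuclease P subunit, was taken out of the ribosomal protein list. The members and lists were chosen with earlier results of these data known. Promoter sequences and motifs are not analysed here.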

Additional observations from a re-analysis of the deposited data

Results flagged for a closer look

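The list of yaf9d replicate 2 holds 39 peaks on the mitochondrial genome, which no comparison above uses. The lists of yaf9d replicate 1 and of both wild_type libraries hold 0.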

How the results depend on the processing

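A window of 300 bp turned the upstream difference (yaf9d minus wild_type) to -0.5, with means of 1 in yaf9d and 1.5 in wild_type, and left 0 genes called upstream in both yaf9d libraries alone. A window of 1000 bp gave means of 6.5 and 5.5, with 2 genes in all 4 libraries, 2 in yaf9d alone and 1 in wild_type alone. Cutting the window at neighbouring genes gave means of 2 and 1.5, with 0 in all 4 libraries and 0 in yaf9d alone. Overlap by 1 bp gave means of 7 and 12.5, a difference of -5.5, 4 genes in all 4 libraries, 0 in yaf9d alone and 5 in wild_type alone. A fold of 2 or more left gene body means of 3 and 3, a difference of 0. Without summits in upstream windows of other coding genes the gene body difference was -2.5, with means of 11 and 13.5. Without the 6 near-identical genes the upstream difference was 0, with a yaf9d mean of 2, and the gene body mean of yaf9d was 7. A −log10 q of 5 or more and equal list length (this one chosen after seeing the data) kept every direction and stayed within 1.5 times. The cause was not tested. Shares over all coding genes are not given here for the other windows, the cut window, or the fold and q limits. They are also not given without summits in other genes' upstream windows. Counts at these settings thus have no background beside them.

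Leaving out 1 library at a time moved the upstream difference between 0 and 2, the gene body difference between -12 and 2, the gene body mean between 4 and 18 in yaf9d and between 13 and 19 in wild_type, and the upstream mean of wild_type between 2 and 4. Genes called upstream in all remaining libraries numbered 1 to 3 (3 without wild_type replicate 1), those in yaf9d alone 1 to 3 (3 without wild_type replicate 2), and those in wild_type alone 0 to 1. Shares over all coding genes for these patterns with a library left out are not given here, so the counts have no background beside them. With the replicate block, exchanging genotypes within a number, the differences were 1 and -5 genes (exact permutation p = 1 for both; the smallest possible is 0.5). The numbers share no stated culture or day, and deviations of same-numbered libraries over 6002 genes correlated at -0.057 for upstream and -0.0079 for gene body calls.

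The lists hold peaks and no read totals, so binding below the threshold of a list cannot be told from none.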
